A study of Mus musculus with 4 samples.

Results

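The mitochondrial ribosomal protein genes are the nuclear genes whose symbols begin with Mrpl (large subunit) or Mrps (small subunit) followed by a number. All 77 such genes among the 24391 listed were taken, 48 named for the large subunit and 29 for the small subunit. They were measured by RNA sequencing in 4 mouse lung tumour samples, 2 labelled K-Ras and 2 labelled K-Ras Mll4-/-. Both groups carried the K-Ras LSL-G12D allele, an oncogenic K-Ras that stays silent until Cre removes its stop cassette, and the second group also carried floxed Mll4 alleles (Mll4fl/fl). Mll4, now named Kmt2d, is a histone methyltransferase of enhancers. Cells bearing the leukocyte antigen CD45 had been depleted before RNA extraction in every sample. The Cre driver, strain, age and any pooling of animals are not given in the sources used here, and the labels do not say whether the samples of a group came from different mice, so the spread between them may be technical.

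Mitochondrial ribosomes translate the few messenger RNAs encoded by mitochondrial DNA, nearly all of them for subunits of the respiratory chain and the ATP synthase. All of their proteins are made from nuclear genes in the cytosol and imported, while their RNA comes from the mitochondrial genome. The mammalian particle holds homologues of bacterial ribosomal proteins together with many proteins found only in mitochondria. The small subunit reads the message, and the large subunit joins amino acids and passes the chain out at the inner membrane. Some symbols do not match the place of the protein. Mrps18a and Mrps30 sit in the large subunit, and Mrps36 is known as a component of the 2-oxoglutarate dehydrogenase complex.

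Printed below are the promoter sequences of the 4 of the 77 genes that DESeq2, an alternative count test, called. DESeq2 called 5.23% of all genes with an adjusted p as higher, a share near that of the 77. The main test, edgeR's quasi-likelihood test, called 0 of the 77. Mrpl22, which carries an ETS and an NRF1 core near its start, is printed beside the 4 as a promoter with both cores. Of the 5 stretches, those of Mrpl51 and Mrpl22 hold a marked core and those of Mrpl42, Mrpl12 and Mrps21 hold none. Each line gives the 150 bases that precede the annotated transcription start, 5′ to 3′ on the gene's strand, from RefSeq on GRCm38.p6. The capitals mark an ETS core (CCGGAAG) or an NRF1 core (GCGCATGCG) on either strand. The submitters' processing notes name mm9 for the counts, so the positions below belong to the sequence table and not to the counts.
Mrpl42 (chr10:95501950-95502099, minus strand): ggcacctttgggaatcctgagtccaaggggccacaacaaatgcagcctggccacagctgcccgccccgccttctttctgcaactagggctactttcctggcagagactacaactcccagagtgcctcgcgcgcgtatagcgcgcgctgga
Mrpl51 (chr6:125192050-125192199, plus strand): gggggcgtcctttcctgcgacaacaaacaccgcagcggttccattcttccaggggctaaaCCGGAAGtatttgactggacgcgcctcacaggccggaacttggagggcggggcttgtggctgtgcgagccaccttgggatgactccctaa
Mrpl12 (chr11:120484487-120484636, plus strand): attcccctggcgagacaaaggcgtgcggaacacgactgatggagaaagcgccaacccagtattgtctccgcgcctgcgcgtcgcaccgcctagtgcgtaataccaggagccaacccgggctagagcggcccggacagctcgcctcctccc
Mrps21 (chr3:95871515-95871664, minus strand): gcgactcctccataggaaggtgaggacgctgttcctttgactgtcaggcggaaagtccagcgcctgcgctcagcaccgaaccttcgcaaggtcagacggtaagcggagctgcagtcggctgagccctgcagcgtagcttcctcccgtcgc
Mrpl22 (chr11:58171514-58171663, plus strand): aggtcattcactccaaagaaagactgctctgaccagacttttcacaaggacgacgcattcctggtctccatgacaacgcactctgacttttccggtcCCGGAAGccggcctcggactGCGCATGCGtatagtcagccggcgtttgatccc

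The promoter table held 68 of the 77 genes, with 250 bases before and 50 after each start. An ETS core was found on either strand in 25 of the 68 (36.8%), against 12.9% of 17492 protein-coding genes and 9.93% of all 27025 genes in the table. The NRF1 core was found in 7 (10.3%, against 2.61% of coding genes and 1.95% of all), and the YY1 core AAGATGGCG in 8 (11.8%, against 2.14% and 1.64%). The E-box CACGTG was present in 5 (7.35%, against 8.91% and 8.09%) and the TATA box TATAAA in 5 (7.35%, against 14.8% and 15.7%). ETS factors such as the GABP complex, NRF1 and YY1 are known regulators of nuclear genes for mitochondrial proteins. These matches are letters in a window and not measured binding. In Mrps21 and Mrpl42 the match (ETS and YY1) lies in the first 50 transcribed bases, outside the stretch printed above.

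All 77 genes passed the count filter, with between 120 reads (Mrps33) and 1499 reads (Mrpl51) per gene and sample. Each sample had 26683033 to 36677987 reads assigned to genes, with neither group the deeper throughout. Levels are CPM values, in which the counts are scaled by sequencing depth and by TMM factors, with 2 samples in each group. Kmt2d itself was at 395 and 526 CPM in the K-Ras samples and at 367 and 317 CPM in the K-Ras Mll4-/- samples, for a log2 fold change of -0.43 (SE 0.21; adjusted p = 0.302 by edgeR's quasi-likelihood test). A whole-gene count does not show a deletion of some exons, so the genotype is taken from the labels. The 7 markers of alveolar type 2 cells, which secrete surfactant, summed to 18293 to 30107 CPM per sample, and none of the markers in any list was at 0 reads in any sample.

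Summed over the 77 genes, mitoribosomal transcripts stood at 1191 and 1110 CPM in the K-Ras samples and at 1451 and 1433 CPM in the K-Ras Mll4-/- samples. Without TMM factors, reads of the 77 genes were 0.125% and 0.109% of gene-assigned reads in the K-Ras samples, and 0.143% and 0.141% in the K-Ras Mll4-/- samples. Both K-Ras Mll4-/- samples lay above both K-Ras samples. The share of tallied reads that were not assigned to a gene also separated the groups, at 65.6% and 64.5% in K-Ras and 60.5% and 60.1% in K-Ras Mll4-/- samples, and its part in these levels was not tested. In bulk tissue, fewer cells of a type and less RNA per cell cannot be told apart. The large subunit genes summed to 794 and 737 CPM in K-Ras and to 981 and 975 CPM in K-Ras Mll4-/- tumours. The small subunit genes summed to 397 and 374 CPM in K-Ras and to 470 and 458 CPM in K-Ras Mll4-/- tumours, so the groups did not overlap for either subunit.

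**Figure D1:**
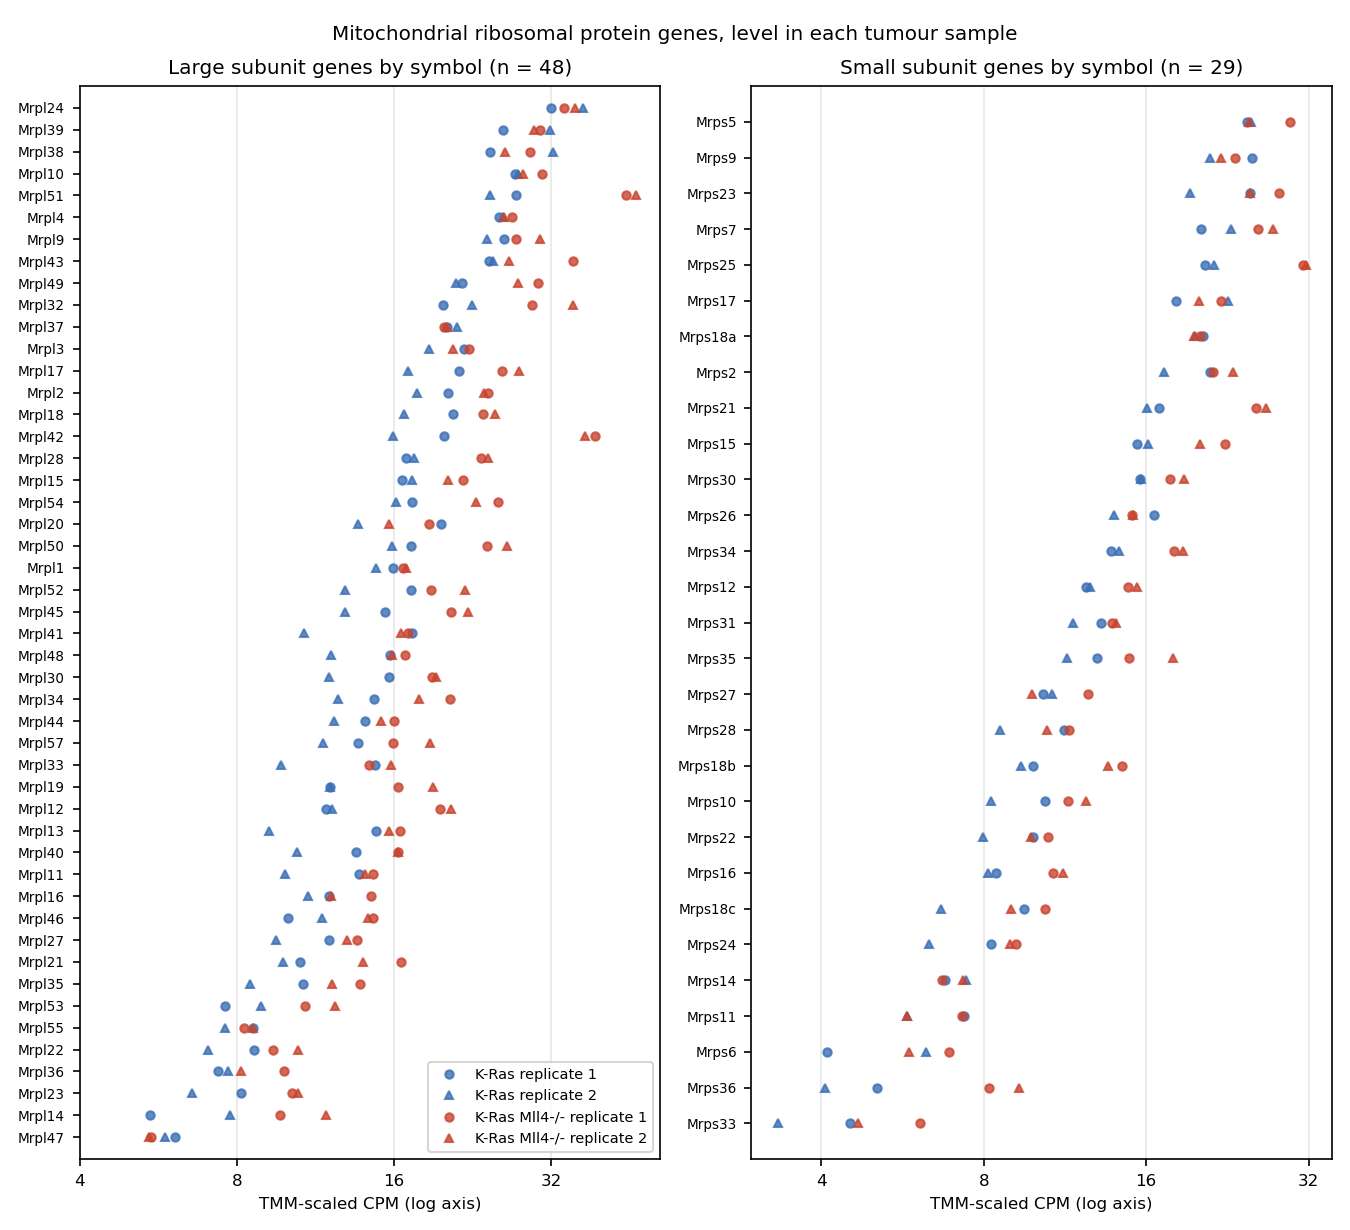
Level of each of the 77 genes in each sample, in TMM-scaled CPM on a log axis, with large subunit genes on the left and small subunit genes on the right, ordered by the K-Ras level. Circles are replicates 1 and triangles replicates 2, blue for K-Ras and red for K-Ras Mll4-/-. The red points of Mrpl42 and Mrpl51 lie far to the right of the blue ones, while those of Mrpl47 lie just to the left.

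In the comparison of K-Ras Mll4-/- with K-Ras tumours, most mitoribosomal genes were higher without Mll4 by a small amount, but no single gene passed the test. Of the 77 genes, 69 had a positive log2 fold change, against 48.8% of the 16001 genes tested. In 54 genes (70.1%) both K-Ras Mll4-/- samples were above both K-Ras samples, against 29.9% of all genes tested. In 2 genes (2.60%), Mrpl47 and Mrpl37, both were below, against 28.5% of all genes tested. The other 21 overlapped. The median log2 fold change of the 77 genes was 0.31, with quartiles at 0.15 and 0.46, against -0.01 over all genes tested. In place of 54, there were 44 such genes with upper quartile scaling and 42 with scaling by total counts, against 25.1% and 25.4% of all genes.

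At an adjusted p under 0.05, edgeR's quasi-likelihood test called 0 of the 77 genes, against 0.0375% of all genes tested, with adjusted p values from 0.141 to 0.989. An unadjusted p under 0.05 was reached by 18 genes, 13 of the large and 5 of the small subunit, all of them higher in K-Ras Mll4-/- tumours. Over all genes tested, 11.4% reached that level as higher and 10.4% as lower. DESeq2 called 4 of the 77, Mrpl42, Mrpl51, Mrpl12 and Mrps21, all higher. That share was near the 5.23% of all genes with an adjusted p that it called as higher. The edgeR likelihood ratio test called 2, Mrpl42 and Mrpl51, both higher, against 4.85% of all genes called as higher. With limma-voom 0 were called, and 19 (24.7%) were higher at an unadjusted p under 0.05, against 11.5% of all genes. The number of 18 (23.4%) depended on single samples, and so did the share over all genes. It was 10 (13.0%) without K-Ras replicate 2, against 11% of all genes, and 27 (35.1%) without K-Ras replicate 1, against 11.7%. It was 3 (3.9%) without K-Ras Mll4-/- replicate 1, against 6.48%, and 2 (2.6%) without K-Ras Mll4-/- replicate 2, against 3.76%. The members' share was thus near or below that of all genes in 3 of these 4 fits.

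The K-Ras samples differed from each other more than the K-Ras Mll4-/- samples did. This was not particular to the 77 genes. Over genes of the whole series, the chi-square statistic per gene between replicates was 122 in K-Ras and 47.3 in K-Ras Mll4-/-. Among the 77, the median coefficient of variation of a gene was 10.7% between the K-Ras samples and 5.15% between the K-Ras Mll4-/- samples. K-Ras replicate 2 held the lowest value of the 4 samples in 48 genes and K-Ras replicate 1 in 24, while the K-Ras Mll4-/- samples held the highest value in 31 and 32 genes. The median log2 difference between K-Ras replicate 2 and replicate 1 was -0.13. Without K-Ras replicate 2 the median log2 fold change of the 77 genes was 0.22, and without K-Ras replicate 1 it was 0.44.

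**Figure D2:**
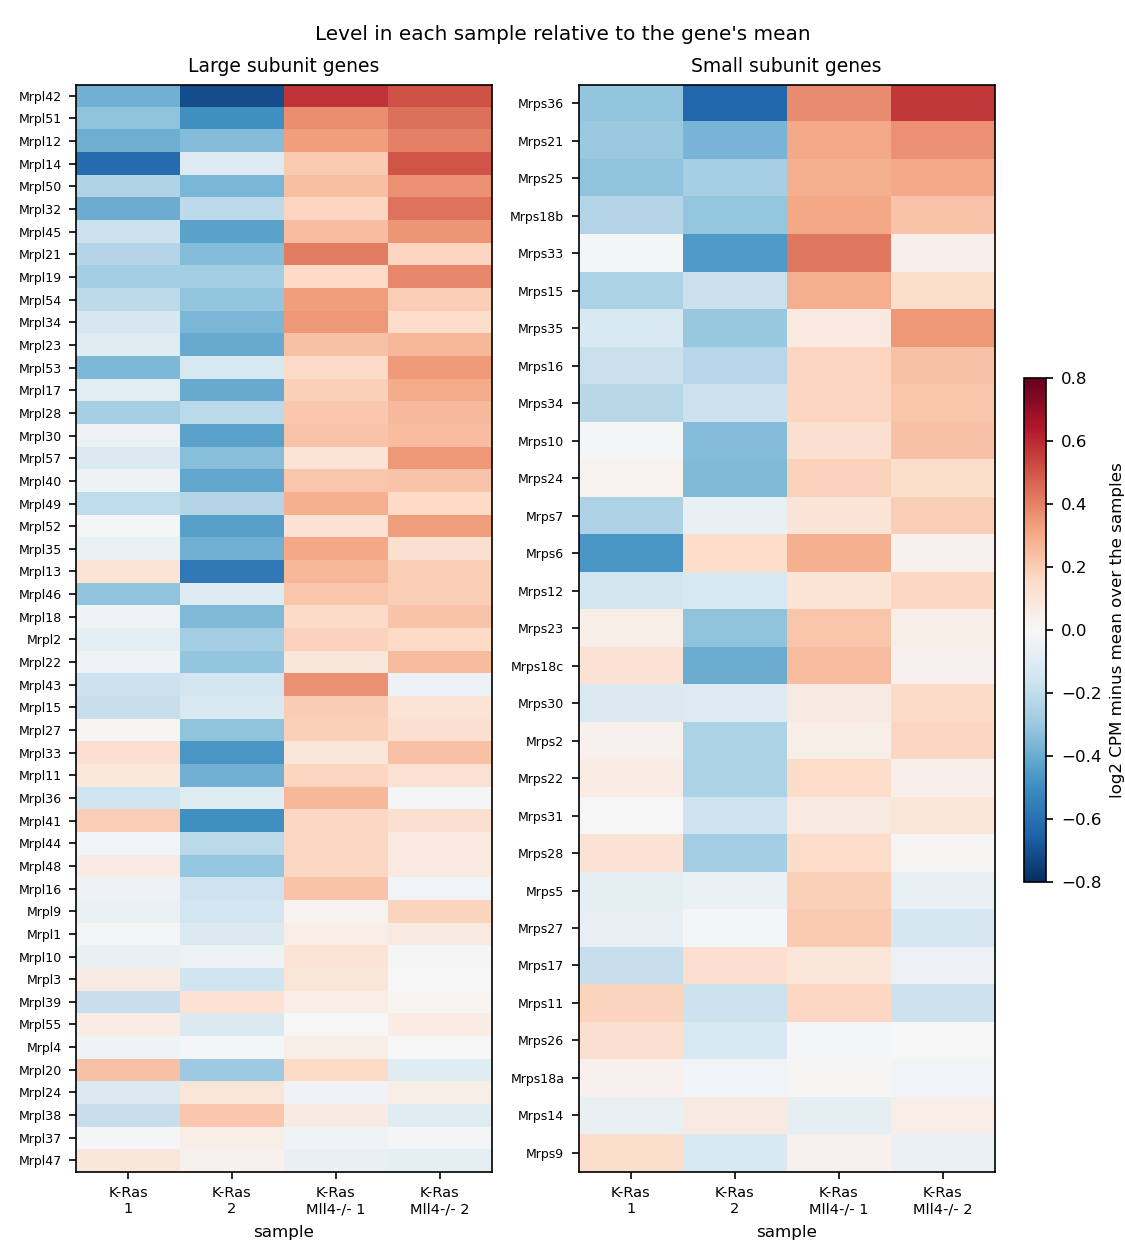
Log2 CPM of each gene in each sample minus that gene's mean over the samples, for large subunit genes (left) and small subunit genes (right), ordered by log2 fold change. Blue is below and red above the gene's mean. The column of K-Ras replicate 2 is the bluest, and the rows at the bottom, from Mrps11 down among small subunit genes, show no split between the groups.

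Among large subunit genes, the widest difference was in Mrpl42, a protein found only in mitochondrial ribosomes. It was at 19.9 and 15.9 CPM in the K-Ras samples and at 38.9 and 37.1 CPM in the K-Ras Mll4-/- samples. The groups stood well apart, at 17.9 ± 2.84 and 38.0 ± 1.23 CPM (SD, n = 2 each). The log2 fold change of 1.08 (SE 0.17) did not pass edgeR's quasi-likelihood test (adjusted p = 0.141). Mrpl42 was called by DESeq2 (adjusted p = 8.54e-04) and by the likelihood ratio test (adjusted p = 0.00195). Without K-Ras replicate 1 the quasi-likelihood test also called it (adjusted p = 0.0472), in a fit that takes its spread from the K-Ras Mll4-/- pair alone, assumes the lone K-Ras sample to vary alike, and called 0.667% of all genes as higher. Its log2 fold change ranged from 0.87 to 1.26 over all 15 alternatives.

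Mrpl51, another mitochondria-specific protein and the gene with the most reads of the 77, was at 27.4 and 24.4 CPM in the K-Ras samples and at 44.5 and 46.5 CPM in the K-Ras Mll4-/- samples. Its groups did not overlap and differed by 0.81 on the log2 scale (SE 0.14; edgeR quasi-likelihood adjusted p = 0.147). Mrpl14, a homologue of a bacterial protein at the face that binds the small subunit, was at 5.46 and 7.78 CPM in K-Ras and at 9.67 and 11.8 CPM in K-Ras Mll4-/- samples. The difference of 0.70 (SE 0.28; edgeR quasi-likelihood adjusted p = 0.241) was uneven, at 0.47 to 0.97 with 1 sample omitted. Mrpl14 overlaps Tmem63b in RefSeq, so the counting could split or drop reads they share. Mrpl3, which reaches the catalytic centre of the large subunit, overlapped between the groups at 21.8 and 18.7 CPM in K-Ras against 22.2 and 20.8 CPM.

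The stalk recruits translation factors to the large subunit. Its best known member, Mrpl12, has also been reported to bind the mitochondrial RNA polymerase. Mrpl12 was at 11.8 and 12.2 CPM in the K-Ras samples and at 19.6 and 20.6 CPM in the K-Ras Mll4-/- samples, with little spread within either group. The log2 fold change was 0.74 (SE 0.16; edgeR quasi-likelihood adjusted p = 0.156), and DESeq2 called it (adjusted p = 0.0341). In all 5 stalk genes both K-Ras Mll4-/- samples were the higher, against 29.9% of all genes tested, but by unequal amounts. Mrpl10, which anchors Mrpl12, differed least, at 27.3 and 27.7 CPM in K-Ras and 30.8 and 28.3 CPM in K-Ras Mll4-/- samples (log2 fold change 0.10, SE 0.13). Mrpl11, at the base of the stalk, had a log2 fold change of 0.28 (SE 0.23), which was 0.05 without K-Ras replicate 2 and 0.54 without K-Ras replicate 1. Mrpl53 had a log2 fold change of 0.49 (SE 0.21) and Mrpl54 of 0.53 (SE 0.15). The median of the 5 was 0.49.

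The 8 genes of the central protuberance, the crest of the large subunit that faces the small one, had a median log2 fold change of 0.34. In 6 of them (75%) both K-Ras Mll4-/- samples were higher, against 29.9% of all genes tested. Of the 8, 0 had an unadjusted p under 0.05, against 11.4% of all genes as higher and 10.4% as lower. Mrpl38 was the one with a negative value, -0.04 (SE 0.19), and its K-Ras samples at 24.5 and 32.3 CPM spanned the K-Ras Mll4-/- samples at 29.1 and 26.1 CPM. The 9 genes of the polypeptide exit site had a median of 0.34 and the widest range of these groups. Mrpl50 was at 17.3 and 15.8 CPM in K-Ras and at 24.2 and 26.4 CPM in K-Ras Mll4-/- samples (log2 fold change 0.61, SE 0.15; edgeR quasi-likelihood adjusted p = 0.168). Mrpl44, which has a ribonuclease III fold, had a log2 fold change of 0.24 (SE 0.18).

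Mrpl47, a homologue of the bacterial exit-site protein L29, had the lowest log2 fold change of all 77, at -0.13 (SE 0.23). It was at 6.08 and 5.84 CPM in the K-Ras samples and at 5.48 and 5.43 CPM in the K-Ras Mll4-/- samples. The groups did not overlap, but the difference was smaller than its standard error. Mrpl37, a mitochondria-specific protein, was the other gene with both K-Ras Mll4-/- samples below, at 20.2 and 21.1 CPM in K-Ras against 19.9 and 20.2 CPM (log2 fold change -0.04, SE 0.14). Both kept a negative sign under every alternative, from -0.19 to -0.09 for Mrpl47 and from -0.10 to -0.02 for Mrpl37.

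**Figure D3:**
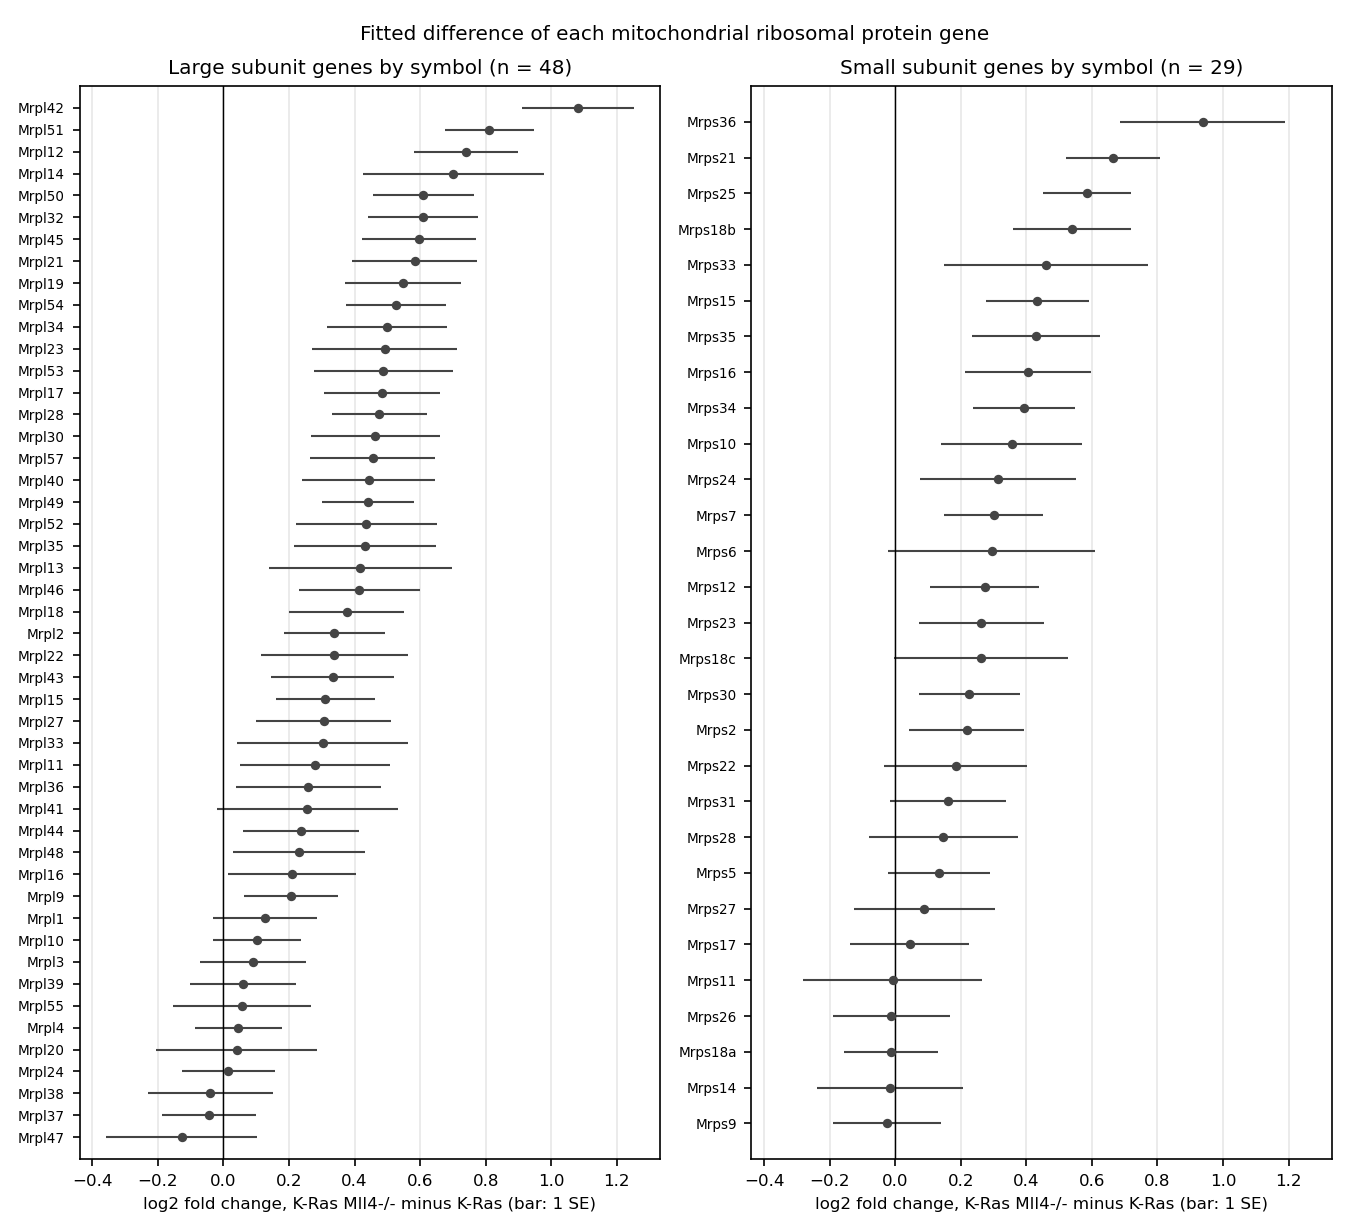
Fitted log2 fold change of each gene, K-Ras Mll4-/- minus K-Ras, with bars of 1 standard error, for large (left) and small (right) subunit genes. Most points lie right of 0, from -0.13 (Mrpl47) to 1.08 (Mrpl42).

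Among small subunit genes the median log2 fold change was 0.26, against 0.36 for the large subunit. In 16 of 29 small subunit genes (55.2%) and in 38 of 48 large subunit genes (79.2%) both K-Ras Mll4-/- samples were higher. Over all genes tested this share was 29.9%. The difference between the subunits was not tested. With Mrps18a and Mrps30 counted in the large subunit and Mrps36 in neither, the medians were 0.34 and 0.27. The small subunit median was 0.19 without K-Ras replicate 2 and 0.36 without K-Ras replicate 1.

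The widest difference among the S-named genes was in Mrps36, whose protein belongs to 2-oxoglutarate dehydrogenase. It was at 5.07 and 4.07 CPM in the K-Ras samples and at 8.19 and 9.31 CPM in the K-Ras Mll4-/- samples, without overlap (log2 fold change 0.94, SE 0.25; edgeR quasi-likelihood adjusted p = 0.177). Mrps21, a homologue of a bacterial protein, was at 16.9 and 16.1 CPM in K-Ras and at 25.6 and 26.7 CPM in K-Ras Mll4-/- samples. Its spread within groups was small beside the difference of 0.67 (SE 0.14; edgeR quasi-likelihood adjusted p = 0.156), and DESeq2 called it (adjusted p = 0.0472). Mrps25, found only in mitochondria, was at 20.5 and 21.4 CPM in K-Ras and at 31.3 and 31.6 CPM in K-Ras Mll4-/- samples (log2 fold change 0.58, SE 0.13; edgeR quasi-likelihood adjusted p = 0.160). Its range over all 15 alternatives was narrow, from 0.53 to 0.60.

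The S18 family has 3 members in mammals. Mrps18b was at 9.88 and 9.38 CPM in K-Ras and at 14.4 and 13.6 CPM in K-Ras Mll4-/- samples, a log2 fold change of 0.54 (SE 0.18). Mrps18c overlapped between the groups, at 9.48 and 6.67 CPM in K-Ras against 10.4 and 8.97 CPM (log2 fold change 0.26, SE 0.27). Its value was 0.02 without K-Ras replicate 2, 0.54 without K-Ras replicate 1 and 0.01 with GC and length offsets. Mrps18a, the one placed in the large subunit, was nearly level at 20.4 and 19.7 CPM in K-Ras and 20.1 and 19.6 CPM in K-Ras Mll4-/- samples (log2 fold change -0.01, SE 0.14). The differences between the 3 were not tested. Mrps30, also of the large subunit, was at 15.6 ± 0.0483 and 18.2 ± 0.751 CPM (SD, n = 2 each), which differed by 0.23 on the log2 scale (SE 0.15).

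Mrps34, Mrps16 and Mrps22 are small subunit genes known from inherited mitochondrial disease. Mrps34 was at 13.8 and 14.2 CPM in K-Ras and at 18.1 and 18.7 CPM in K-Ras Mll4-/- samples, a log2 fold change of 0.39 (SE 0.16). Mrps16 followed with 0.40 (SE 0.19), at 8.29 ± 0.213 and 11.0 ± 0.326 CPM (SD, n = 2 each). Neither pair of samples overlapped. Mrps22 did overlap, at 9.88 and 7.97 CPM in K-Ras against 10.5 and 9.77 CPM (log2 fold change 0.19, SE 0.22). Mrps12, the decoding-centre protein, had a log2 fold change of 0.27 (SE 0.17) without overlap.

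Mrps33, which had the fewest reads of the S-named genes, had a log2 fold change of 0.46 with a wide standard error of 0.31, and lay between 0.24 and 0.70 with 1 sample omitted. The lowest values in the small subunit were those of Mrps9 (-0.03, SE 0.16) and Mrps14 (-0.02, SE 0.22), both homologues of bacterial proteins, followed by Mrps18a. None of these 3 separated the groups. Divided by the origin assigned in the lists, the 29 large subunit proteins with a bacterial homologue had a median of 0.34. The 20 listed as mitochondria-specific had 0.37. In the small subunit the medians were 0.27 for 16 homologues and 0.33 for 10 mitochondria-specific proteins. Mrps18a and Mrps18b, though of the S18 family, were listed as mitochondria-specific in the large and small subunit. Mrps36 and Mrpl57 stand in none of these 4 groups.

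Levels between genes were compared per kilobase of the longest coding transcript in GENCODE M21, which need not be the transcript these tumours use. In K-Ras tumours the 77 genes ranged from 1.77 (Mrpl47) to 33.8 (Mrps21) CPM per kilobase, with a median of 9.26, a 19.1-fold range. In K-Ras Mll4-/- tumours the range was from 1.62 (Mrpl47) to 57.0 (Mrpl42), with a median of 12.7. Mrpl42 ranked 4 by level per kilobase in K-Ras tumours, at 26.9, while Mrpl51 at 7.56 and Mrpl12 at 9.13 were near the middle. Across the 77 genes, the log2 fold change had a Spearman rho of -0.20 with transcript length and -0.00 with GC content. Over 15871 genes with a length these were -0.08 and -0.15. Genes are not independent replicates, and all these values share the same libraries. The members are short, with a median of 1316 bases against 2999, and with offsets for GC content and length the median log2 fold change of the 77 was 0.26 and that of all genes 0.03.

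The genome places many of these genes head to head with a neighbour. For 24 of the 68 genes in the promoter table, the start window overlapped that of a gene on the opposite strand. Of these neighbours, 21 were tested and were not themselves mitoribosomal. Both K-Ras Mll4-/- samples were higher in 10 and lower in 5 of the 21, and 6 overlapped. Over all genes tested, both were higher in 29.9% and lower in 28.5%. Mrpl46 and Mrps11 face each other across one such window. Mrpl46 was at 10.0 and 11.7 CPM in K-Ras and 14.6 and 14.3 CPM in K-Ras Mll4-/- samples (log2 fold change 0.42, SE 0.18), while Mrps11 overlapped between the groups at 7.36 and 5.76 against 7.27 and 5.77 CPM (log2 fold change -0.01, SE 0.27). Mrpl47, the lowest of the 77, faces the complex I gene Ndufb5, which had a log2 fold change of 0.48 (SE 0.15). Mrps12 faces Sars2, the mitochondrial seryl-tRNA synthetase gene, which had 0.06 (SE 0.23).

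Median log2 fold changes were set side by side for genes with and without each promoter motif. The median log2 fold change was 0.34 for the 25 genes with an ETS core and 0.28 for the 43 without, 0.34 for the 7 with the NRF1 core and 0.30 for the 61 without, and 0.17 for the 8 with the YY1 core and 0.32 for the 60 without. For the E-box the median was 0.26 for the 5 genes with it and 0.31 for the 63 without. For the TATA box it was 0.23 for the 5 with it and 0.31 for the 63 without. These are descriptions with no test. Of the factors themselves, Nrf1 and Gabpa overlapped between the groups, with log2 fold changes of -0.01 (SE 0.12) and 0.07 (SE 0.13). Yy1 did not overlap, at 74.4 and 77.6 CPM in K-Ras and 91.3 and 92.6 CPM in K-Ras Mll4-/- samples (log2 fold change 0.27, SE 0.12; edgeR quasi-likelihood adjusted p = 0.254). Myc, a growth regulator known to act on ribosome production, was at 33.4 and 34.4 CPM in K-Ras and at 63.8 and 66.1 CPM in K-Ras Mll4-/- samples, without overlap (log2 fold change 0.94, SE 0.12; edgeR quasi-likelihood adjusted p = 0.128). Ppargc1b, a coactivator of mitochondrial genes, had a log2 fold change of 0.64 (SE 0.36).

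The other genes of mitochondrial translation were counted from lists, and 0 were called by edgeR's quasi-likelihood test in any of them. The 6 mitoribosomal proteins with other symbols resembled the 77, with a median log2 fold change of 0.38. Both K-Ras Mll4-/- samples were higher in 5 of the 6 (83.3%), against 29.9% of all genes tested. Ptcd3, a small subunit protein with RNA-binding repeats, was at 32.3 and 33.4 CPM in K-Ras and 46.5 and 51.0 CPM in K-Ras Mll4-/- samples (log2 fold change 0.57, SE 0.13), and Gadd45gip1, of the large subunit, had 0.52 (SE 0.16). Of these 6 genes, 2 had an unadjusted p under 0.05, both higher, against 11.4% of all genes tested as higher.

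Assembly and rRNA processing genes were split between the directions. Of 25, both K-Ras Mll4-/- samples were higher in 9 (36%) and lower in 7 (28%), near the shares of all genes (29.9% and 28.5%). Their median log2 fold change was 0.15. An unadjusted p under 0.05 was reached by 1 in each direction, against 11.4% of all genes as higher and 10.4% as lower. Noa1, a GTPase of small subunit assembly, was at 7.68 and 7.67 CPM in K-Ras and at 14.6 and 14.1 CPM in K-Ras Mll4-/- samples (log2 fold change 0.90, SE 0.18). Ybey, an rRNA-processing endoribonuclease, went the other way with -0.77 (SE 0.38). The 11 translation factors tested had a median of 0.09, with 5 (45.5%) higher and 1 (9.09%) lower in both samples. Among them Tufm, the elongation factor that delivers aminoacyl-tRNA, had a log2 fold change of 0.56 (SE 0.17), and Tsfm, its exchange factor, 0.33 (SE 0.23).

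The 17 mitochondrial aminoacyl-tRNA synthetases, which charge tRNAs, had a median of 0.04, with 7 (41.2%) higher and 2 (11.8%) lower in both samples. Over all genes tested these shares were 29.9% and 28.5%. Of the 17, 0 reached an unadjusted p under 0.05, against 11.4% of all genes as higher and 10.4% as lower. The largest values among the synthetases were those of Iars2 (0.38, SE 0.18) and Cars2 (-0.29, SE 0.20). The 10 genes of mitochondrial transcription and mRNA stability had a median of 0.20, with 5 (50%) higher and 0 lower in both samples. Of the 10, 0 reached an unadjusted p under 0.05. Slirp (0.36, SE 0.23) and Fastkd5 (0.31, SE 0.20), both RNA-binding proteins, had the largest values. In the 9 regulators the median was 0.31, with 5 (55.6%) higher and 0 lower in both samples, and 2 higher at an unadjusted p under 0.05. The mitochondrially encoded transcripts were not analysed here.

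**Figure D4:**
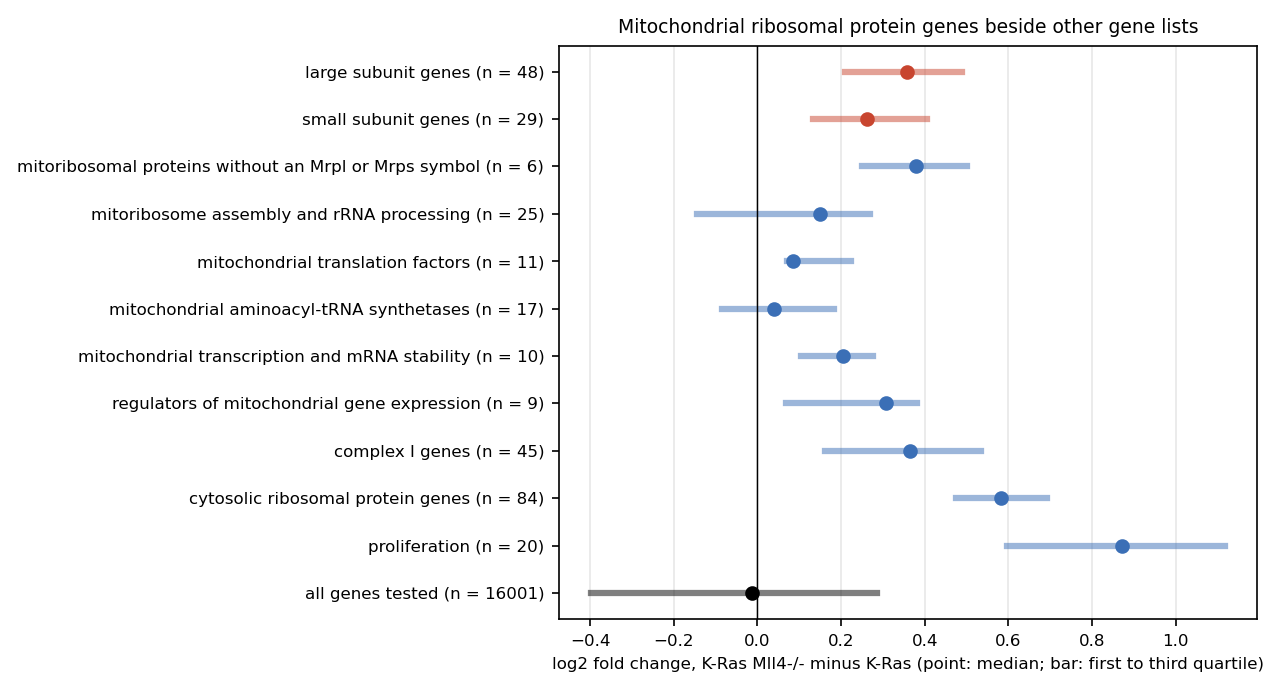
Median log2 fold change (points) and interquartile range (bars) of the mitoribosomal genes (red), of other lists (blue) and of all genes tested (black), K-Ras Mll4-/- minus K-Ras. The large and small subunit medians of 0.36 and 0.26 lie between the synthetases at 0.04 and the cytosolic ribosomal proteins at 0.58.

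Beside the most similar gene families, the 77 genes lay near complex I and below the cytosolic ribosome. The 45 genes with Nduf symbols, subunits and assembly factors of complex I, had a median log2 fold change of 0.37, with both K-Ras Mll4-/- samples higher in 71.1%. Their largest values were those of Ndufa5 (0.83, SE 0.18) and Ndufa4 (0.77, SE 0.16). The 84 cytosolic ribosomal protein genes tested had a median of 0.58, with both samples higher in 88.1%, against 29.9% of all genes tested. Their largest values were those of Rpl26 (1.73, SE 0.61), at 0.194 to 1.09 CPM in any sample, and Rps4l, at 13.2 and 16.2 CPM in K-Ras and 18.7 and 59.2 CPM in K-Ras Mll4-/- samples. Many ribosomal protein genes have near-identical copies, between which reads may be split. The differences between these families were not tested.

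Proliferation, endothelial, fibroblast and ciliated markers differed between the groups, while club, immune and alveolar type 2 sums overlapped. The part of these lists in the mitoribosomal values was not tested. Over all genes tested, both K-Ras Mll4-/- samples were higher in 29.9% and lower in 28.5%. All 20 proliferation genes were higher in both K-Ras Mll4-/- samples, with a median log2 fold change of 0.87. They summed to 458 and 419 CPM in K-Ras and to 719 and 766 CPM in K-Ras Mll4-/- tumours. Cdk1, the kinase that drives mitosis, was at 3.53 and 5.26 CPM in K-Ras and at 16.5 and 16.8 CPM in K-Ras Mll4-/- samples (log2 fold change 1.92, SE 0.27), and Plk1, another mitotic kinase, had 1.43 (SE 0.29). Both samples were lower in 6 of 8 endothelial markers, which summed to 6960 and 6692 CPM in K-Ras and 4366 and 3439 CPM in K-Ras Mll4-/- tumours, and in 5 of 7 fibroblast markers, at 2613 and 1192 CPM against 916 and 920 CPM. The 7 ciliated cell markers summed to 168 and 945 CPM in K-Ras and to 92.2 and 99.0 CPM in K-Ras Mll4-/- tumours, and the 4 club cell markers to 702 and 3588 CPM against 743 and 566 CPM. K-Ras replicate 2, which held most of the lowest mitoribosomal values, was thus the sample with the most airway transcripts. The 7 immune markers summed to 4827 and 4461 CPM in K-Ras and to 4841 and 3132 CPM in K-Ras Mll4-/- tumours. Most of each sum was Lyz2 alone, at 4173 and 4211 CPM in K-Ras and 4303 and 2822 CPM in K-Ras Mll4-/- samples. Ptprc was at 275 and 143 CPM in K-Ras against 269 and 171 CPM. Cd68 was at 237 and 48.1 CPM in K-Ras against 188 and 83.6 CPM, so both varied widely within groups. Within these lists the largest log2 fold changes were those of Vwf (-1.21, SE 0.23) and Cldn5 (-0.99, SE 0.26) for endothelium, Col1a2 (-1.21, SE 0.48) and Pdgfra (-1.20, SE 0.17) for fibroblasts, and Foxj1 (-3.09, SE 1.03) and Dnah9 (-2.63, SE 0.85) for ciliated cells. For club cells they were Scgb1a1 (-1.83, SE 0.81) and Scgb3a1 (-1.66, SE 0.57), for alveolar type 2 cells Sftpb (1.03, SE 0.44) and Sftpa1 (-0.37, SE 0.27), and for immune cells S100a8 (-1.41, SE 0.66) and Lyz2 (-0.24, SE 0.29). None was called by edgeR's quasi-likelihood test.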

How the data were processed

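RNA sequencing counts were analysed for 4 samples, 2 in each group, with groups and replicate numbers taken from the sample titles. The authors deposited 1 table of unnormalized counts per sample, by gene symbol. The submitters' processing notes name CASAVA 1.4, STAR, HTSeq and mm9. The gene annotation and strand setting are not given in the sources used here. Without a stated strand setting, reads of a gene and of an overlapping antisense gene cannot be told apart; 25 of the 77 members overlap another RefSeq gene. The 5 closing tallies (reads outside genes, ambiguous, of low quality, unaligned or not unique) were left out; they were 65.6% and 64.5% of all lines tallied in K-Ras and 60.5% and 60.1% in K-Ras Mll4-/-.

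Genes kept by filterByExpr were scaled by TMM and fitted over all 16001 genes with edgeR 4.0.16 in R 4.3.3 (robust quasi-likelihood test, no covariate, Benjamini-Hochberg adjustment over all genes tested). A gene was called at an adjusted p under 0.05. A standard error is the absolute log2 fold change divided by the square root of F. The chi-square statistic per gene between replicates was 122 in K-Ras and 47.3 in K-Ras Mll4-/-, so neither pair was a repeated library. With 2 samples a group, an exact permutation test cannot give a two-sided p below 0.333, so none was used.

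Alternatives were other scalings and count filters, limma-voom (limma 3.58.1), DESeq2 1.42.0, edgeR's likelihood ratio test, the replicate number as a block, offsets for GC content and transcript length (mgcv 1.9.3, GENCODE M21, with both values for all 77 members), and leaving out each sample. Fits were run on simulated counts to check that known fold changes were recovered. The simulation held no effect of replicate number, so it does not decide which test suits these data. In the lists, 2 symbols (Mtrfr and Fastkd4) were not matched. Kinase genes named Rps6k were left out of the cytosolic ribosomal list after their symbols were seen.

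The members and lists were chosen with earlier results of these data known. Members were named by rule (the 5 highest and 3 lowest log2 fold changes of each subunit, any with an unadjusted p under 0.01, the highest and lowest summed count, and a set chosen by role), as were the 2 largest changes of each other list. Mrpl22, Mrpl46, Mrps11, Mrpl53, Mrpl54, Yy1, Nrf1, Gabpa, Ndufb5 and Sars2 were added after their values were seen.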

Additional observations from a re-analysis of the deposited data

How the results depend on the processing

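The 6 genes called overall became 44 with no count filter, 1601 with DESeq2, 1503 with the edgeR likelihood ratio test and 0 with limma-voom (3228 at an unadjusted p under 0.05), and lay between 0 and 528 with 1 sample omitted (0 in 3 such fits, with 1820, 965 and 3549 at an unadjusted p under 0.05). Against 0 mitoribosomal genes called, DESeq2 gave 4, the likelihood ratio test 2, and fits without 1 sample 0 to 1. Against 18 at an unadjusted p under 0.05, the likelihood ratio test gave 10 and fits without 1 sample 2 to 27. Of all 16001 genes tested, 3493 reached that level in the likelihood ratio test and 3484 in the main test, both directions pooled. In the likelihood ratio test, the 10 of 77 members were thus a smaller share than that of all genes. The small subunit median of 0.26 ranged from 0.19 to 0.36 without single samples. The labels do not say whether samples with the same replicate number share a batch or are paired. Deviations of same-numbered samples correlated at 0.24 over genes, and the cause was not tested. A replicate block in the edgeR quasi-likelihood fit gave 217 called genes, or 504 with the block and GC and length offsets, and 0 of the 77 in either fit. The median of the 77 stayed within 0.22 and 0.44 over all 15 alternatives, and its distance from the all-gene median within 0.22 and 0.42. Of the 26 members named by rule, 20 kept their sign throughout. With GC and length offsets Mrpl38 turned to 0.094 (0.10 with the block) and Mrps22 to -0.001. With 1 sample omitted at a time, Mrpl3 went from -0.029 to 0.208, Mrpl38 from -0.22 to 0.16, Mrps14 from -0.089 to 0.051, Mrps18a from -0.052 to 0.018 and Mrps9 from -0.16 to 0.12. Mrps11, named after its values were seen, went from -0.189 to 0.183. The cause of these changes was not tested. Every member had at least 120 reads in each sample. The widest standard errors were those of Mrps6 (0.32, 719 reads in all) and Mrps33 (0.31, 569 reads), against 0.14 for Mrpl51 (4387 reads). With 2 samples a group, 2 residual degrees of freedom remain for each gene.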
